A study of Mus musculus with 9 samples.

Results

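The genes described here were 38 genes of the hypoxia response and of glycolysis, taken from a list of gene symbols and matched to the Ensembl identifiers of the deposited count tables. All 38 were among the 46517 genes of the tables, and all 38 were among the 14870 genes with enough counts to be tested. They comprised 17 enzymes of glycolysis from hexokinase to pyruvate kinase, counted with the 2 phosphofructokinase-2 enzymes, and 3 genes that decide the fate of pyruvate. The other 18 were 6 subunits and oxygen sensors of the hypoxia-inducible factor (HIF) and 12 genes known as HIF targets.

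Messenger RNA was sequenced from mouse intestinal stem cells that were dissociated, embedded in a gel, left to form colonies and collected after 4 days. The gels were a non-degradable polyethylene glycol (PEG) hydrogel, a degradable PEG hydrogel and Matrigel, a basement membrane extract from a mouse tumour, with 3 libraries each. PEG is a synthetic polymer, and a degradable PEG gel is one whose network can break down. All 9 libraries shared the same medium additions, which were R-spondin, noggin, EGF, the GSK3 inhibitor CHIR99021 and valproic acid. Mouse strain, genotype and age are not given in the labels, and neither is the oxygen level of the cultures. Whether the 3 libraries of a gel are independent cultures or animals is not stated, and p-values therefore reflect only the spread between these libraries, which may be technical.

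HIF is a pair of an alpha subunit, Hif1a or Epas1, and the beta subunit Arnt. In oxygenated cells, prolyl hydroxylases such as Egln1 and Egln3 mark the alpha subunit, and the Vhl ubiquitin ligase then has it destroyed, so that HIF is set mainly by protein stability and not by its mRNA. Stabilised HIF binds the core sequence RCGTG near its targets, many of which encode glycolytic enzymes, mitophagy receptors and collagen-modifying enzymes. The intestinal lining is known for a steep oxygen gradient from the crypt to the lumen.

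Libraries held between 38 M and 47.2 M assigned reads. Summed markers of epithelium (6 of 6 with counts in each matrix) stood, in CPM (counts scaled to a common library size), at 4680 to 5590 CPM in non-degradable PEG, 5210 to 5800 CPM in degradable PEG and 4570 to 4820 CPM in Matrigel. Summed crypt stem cell markers (5 of 5) stood at 1810 to 1910 CPM in non-degradable PEG, 2180 to 2350 CPM in degradable PEG and 2680 to 2840 CPM in Matrigel, the reverse of the order of the mean sums of the hypoxia and glycolysis genes. Smoc2 took up most of these sums, with means of 1160, 1390 and 1940 CPM in the same order of matrices. Olfm4 followed that order at a lower level, while Lgr5 (198, 155 and 195 CPM), Ascl2 and Axin2 did not. Of these 5 markers, 3 (Olfm4, Smoc2 and Axin2) fell and 1 (Ascl2) rose in non-degradable PEG against Matrigel. In degradable PEG against Matrigel, 1 (Smoc2) fell and 1 (Ascl2) rose. Endothelial markers summed to at most 0.316 CPM in any library, with Cdh5 and Cldn5 at 0 in all 9, and the highest sums of mesenchymal and blood cell markers were 8.94 and 2.67 CPM, with Dcn, Lum, Actg2, Ptprc and Hbb-bs at 0 in all 9. The part of the stem cell markers in the differences below was not tested. In bulk RNA, fewer cells of a type and less RNA per cell cannot be told apart.

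Colonies in both PEG gels had more RNA of these genes than colonies in Matrigel. Together the 38 genes took up 13800 ± 2400 CPM in non-degradable PEG, 10720 ± 1840 CPM in degradable PEG and 5801 ± 185 CPM in Matrigel (SD, n = 3 each). The 17 glycolysis enzymes alone made up 9349 ± 1590 CPM in non-degradable PEG, 7500 ± 1300 CPM in degradable PEG and 4074 ± 139 CPM in Matrigel. The lowest PEG library, at 8914 CPM for all 38 genes, lay above the highest Matrigel library at 5965 CPM.

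In non-degradable PEG against Matrigel, 31 of the 38 genes (81.6%) rose and 0 fell by edgeR's quasi-likelihood test, at a Benjamini-Hochberg adjusted p under 0.05 over all tested genes. Over all genes tested, 9.71% were called higher and 7.13% lower. Without adjustment, 32 of the 38 were higher and 0 lower at p under 0.05, beside 17.3% and 15.3% of all tested genes. DESeq2 called 31 higher and 0 lower, beside 10.4% and 8.46% of the genes it tested. Libraries of the 2 matrices did not overlap for 34 of the 38 genes, with 33 higher and 1 (Hif1a) lower in non-degradable PEG, where 43.4% of all tested genes did not overlap in either direction. The median log2 fold change of the 38 was 1.11, against -0.0021 over all tested genes.

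In degradable PEG against Matrigel, 23 of the 38 (60.5%) rose and 0 fell by the same test, beside 7.42% of all tested genes called higher and 4.79% lower. At an unadjusted p under 0.05, 29 were higher and 0 lower, beside 14.6% and 12.7% of all tested genes. DESeq2 called 25 higher and 0 lower, beside 7.74% and 5.62% of its tested genes. With the replicate number as a block, 29 were called higher, beside 10.4% of all tested genes. The 2 groups of libraries did not overlap for 30 genes, 29 higher and 1 (Arnt) lower in degradable PEG, beside 30.4% of all tested genes. The median log2 fold change was 0.76, against -0.0163 over all tested genes. Both comparisons use the same 3 Matrigel libraries.

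**Figure D1:**
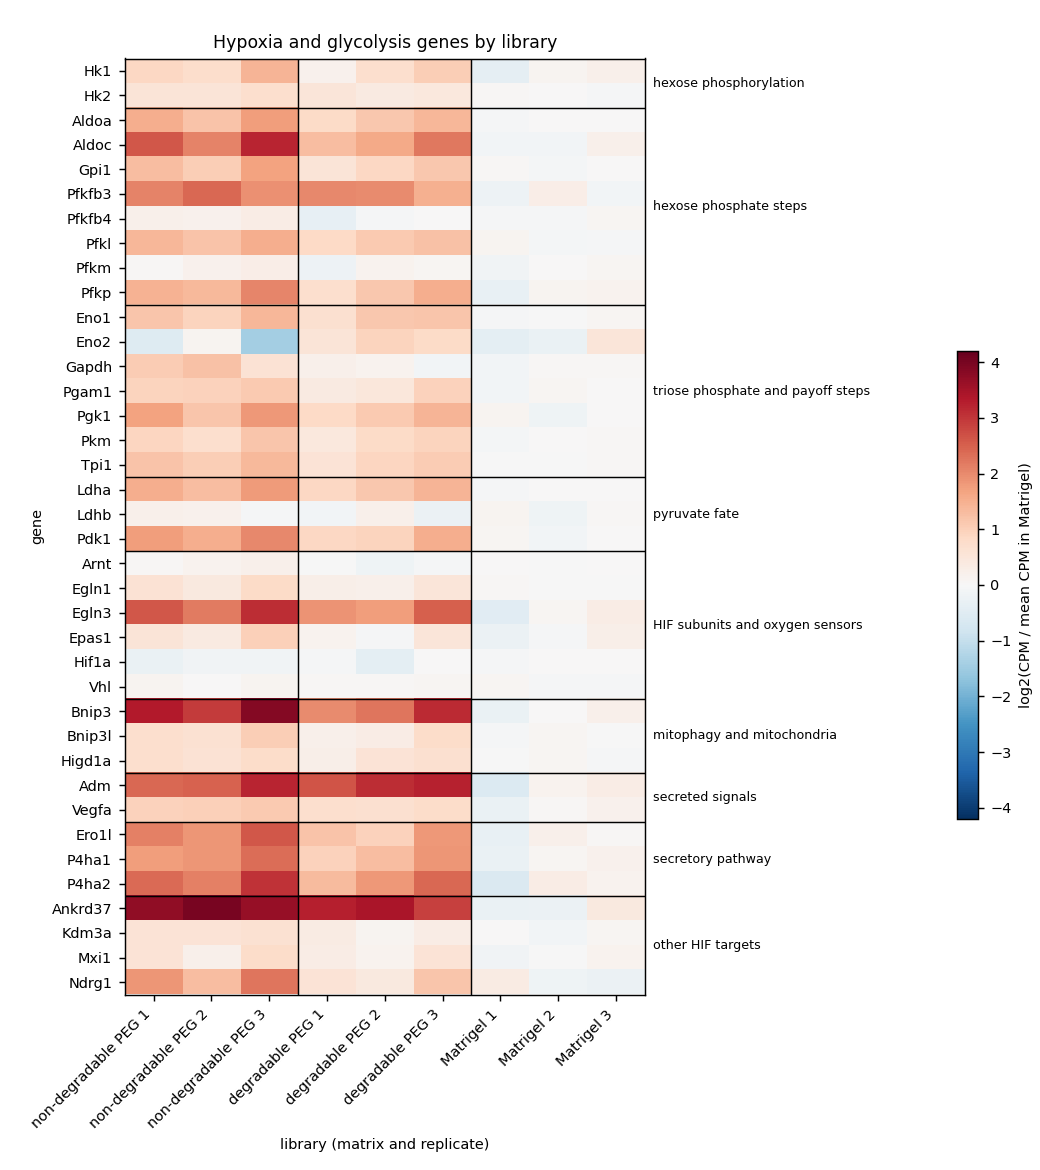
Each cell gives log2 of a library's CPM over the mean CPM of the 3 Matrigel libraries, for 38 genes (rows, grouped by role) in 9 libraries (columns, 3 per matrix). Red, above the Matrigel mean, fills most PEG columns, while Hif1a, Vhl, Arnt, Ldhb, Pfkm and Pfkfb4 stay pale in all columns.

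Within each PEG gel 1 library stood highest for most of the genes. Replicate 3 held the highest value for 33 of 38 genes among the non-degradable PEG libraries and for 29 of 38 among the degradable ones, and replicate 3 of Matrigel for 20 of 38. The same libraries had the largest share of mitochondrially encoded reads in their matrix, at 4.51% in non-degradable PEG, 4.41% in degradable PEG and 3.99% in Matrigel. Without non-degradable replicate 3, 29 of the 38 rose in non-degradable PEG against Matrigel. Over all genes, 795 were then called higher, against 1444 with all libraries. Without degradable replicate 3, 23 of the 38 rose in degradable PEG against Matrigel. Over all genes, 745 were then called higher, against 1103 with all libraries.

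Promoter sequences are shown for 5 genes, to set a gene that rose strongly beside a paralogue that did not pass and beside a HIF subunit. The windows are from RefSeq on GRCm38.p6, run 5′ to 3′ on the gene's strand from 250 bases before to 50 bases after its start, and 35 of the 38 genes matched an entry. Capitals mark the HIF core letters ACGTG or GCGTG on either strand, where matches on the 2 strands may overlap, as in CACGTG.
Ldha, chr7:46845554-46845853 (+): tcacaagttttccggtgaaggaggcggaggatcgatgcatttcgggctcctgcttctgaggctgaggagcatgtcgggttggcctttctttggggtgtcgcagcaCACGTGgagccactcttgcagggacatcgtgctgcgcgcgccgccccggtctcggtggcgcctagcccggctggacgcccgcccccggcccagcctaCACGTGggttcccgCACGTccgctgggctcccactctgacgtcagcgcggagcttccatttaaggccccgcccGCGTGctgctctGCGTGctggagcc
Ldhb, chr6:142507908-142508207 (-): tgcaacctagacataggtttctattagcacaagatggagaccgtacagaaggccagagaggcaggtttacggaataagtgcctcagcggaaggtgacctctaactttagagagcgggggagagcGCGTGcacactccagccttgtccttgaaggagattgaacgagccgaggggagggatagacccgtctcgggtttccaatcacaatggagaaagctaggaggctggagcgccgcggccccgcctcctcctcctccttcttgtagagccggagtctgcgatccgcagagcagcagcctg
Bnip3, chr7:138909457-138909756 (-): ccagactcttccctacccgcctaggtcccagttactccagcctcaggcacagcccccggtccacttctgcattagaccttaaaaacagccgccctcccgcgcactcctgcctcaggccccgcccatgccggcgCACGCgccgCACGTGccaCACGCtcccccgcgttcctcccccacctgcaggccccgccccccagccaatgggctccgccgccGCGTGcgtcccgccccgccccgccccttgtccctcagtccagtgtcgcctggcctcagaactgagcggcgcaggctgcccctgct
Ankrd37, chr8:45999801-46000100 (-): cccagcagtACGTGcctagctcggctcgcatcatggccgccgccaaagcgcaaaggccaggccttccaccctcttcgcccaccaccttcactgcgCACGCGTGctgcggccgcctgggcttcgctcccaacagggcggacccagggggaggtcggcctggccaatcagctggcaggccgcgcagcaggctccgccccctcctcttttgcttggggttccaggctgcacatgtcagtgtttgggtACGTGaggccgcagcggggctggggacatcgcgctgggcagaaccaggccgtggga
Hif1a, chr12:73907617-73907916 (+): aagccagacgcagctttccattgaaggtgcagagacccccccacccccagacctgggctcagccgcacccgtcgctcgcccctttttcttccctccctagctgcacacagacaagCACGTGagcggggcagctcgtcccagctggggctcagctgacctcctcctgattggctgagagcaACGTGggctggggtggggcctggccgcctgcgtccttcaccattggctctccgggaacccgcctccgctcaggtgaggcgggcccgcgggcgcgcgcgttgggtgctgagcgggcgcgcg
The windows held 7 matches for Ldha, 1 for Ldhb, 5 for Bnip3, 4 for Ankrd37 and 3 for Hif1a. Ldha, Bnip3 and Ankrd37 were among the genes with the most matches, so the sequences shown do not represent all genes that rose. Aldoa, Gpi1, Hk1, Mxi1, Pkm, Tpi1 and Vegfa also rose in non-degradable PEG and held 0 matches. Pfkm, which did not pass, held 3. At least 1 match was present in 26 of the 35 genes (74.3%) and in 43.8% of 27025 mouse genes with a window. At least 2 matches were present in 54.3% of the 35 and in 20.8% of all. The 35 were listed as HIF targets, HIF pathway genes and glycolysis genes, so a higher share follows in part from the choice of list. The windows of all genes also include genes that were not tested here. The difference in shares therefore gives no measure of HIF action in these cultures. The median GC content was 62.3% in the windows of the 35 genes, against 52.7% over all windows, and its part in the match counts was not tested. Of the genes called higher in non-degradable PEG, 21 of 28 (75%) held a match, against 5 of 7 (71.4%) of those not called. With at least 2 matches, the shares were 17 of 28 (60.7%) and 2 of 7 (28.6%). A single CACGTG counts as 2 matches in all of these counts. A match is a run of letters and not a measured binding site.

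Hk1 and Hk2, the hexokinases that trap glucose by phosphorylating it, both rose in non-degradable PEG. Hk1 had 201.8, 184.2 and 295 CPM in non-degradable PEG, 125, 180.1 and 223 CPM in degradable PEG, and 84.2, 118 and 126 CPM in Matrigel. All 3 non-degradable libraries lay above Matrigel, while degradable libraries overlapped it. Hk1 rose by a log2 fold change of 1.05 ± 0.228 (SE; edgeR adjusted p = 0.0103) in non-degradable PEG, beside a value of 0.68 ± 0.227 (adjusted p = 0.0755) in degradable PEG. Hk2, the isozyme most tied to HIF, rose by 0.61 ± 0.0704 (adjusted p = 2.95e-04) in non-degradable and by 0.44 ± 0.0703 (adjusted p = 0.00215) in degradable PEG.

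Among the 8 genes of the hexose phosphate steps, 6 rose in each PEG gel and Pfkm and Pfkfb4 did not pass in either. Aldoa, the main aldolase, which splits fructose bisphosphate, had 2014, 1616 and 2405 CPM in non-degradable PEG, 1234, 1548 and 1844 CPM in degradable PEG, and 688, 718 and 711 CPM in Matrigel. Every PEG library was above every Matrigel library. Its log2 fold change was 1.51 ± 0.155 (edgeR adjusted p = 1.78e-04) in non-degradable and 1.13 ± 0.153 (adjusted p = 9.34e-04) in degradable PEG.

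Aldoc, the aldolase best known from brain, changed by more on a lower level. It had 74.2, 51.7 and 110.2 CPM in non-degradable PEG, 29.8, 36.7 and 55.5 CPM in degradable PEG, and 11.1, 11.2 and 13.9 CPM in Matrigel. The PEG gels overlapped each other and neither overlapped Matrigel. Its log2 fold change was 2.70 ± 0.282 (edgeR adjusted p = 1.78e-04) in non-degradable and 1.75 ± 0.277 (adjusted p = 0.00212) in degradable PEG. Gpi1, which turns glucose 6-phosphate into fructose 6-phosphate, rose 2.59-fold in non-degradable and 1.82-fold in degradable PEG.

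Of the 3 phosphofructokinase-1 genes, which encode the committed step, Pfkl and Pfkp rose in both gels and Pfkm passed in neither. Pfkl, the liver-type isozyme, had 366, 314 and 401 CPM in non-degradable PEG, 248, 298 and 322 CPM in degradable PEG, and 151, 132 and 133 CPM in Matrigel. It rose 2.6-fold in non-degradable and 2.09-fold in degradable PEG, with edgeR adjusted p of 6.13e-05 and 2.29e-04. Pfkp, the platelet type, rose 3.16-fold and 2.23-fold.

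Pfkm, the muscle type, had 53.9, 59.1 and 63.2 CPM in non-degradable PEG, 44.8, 57.5 and 54.5 CPM in degradable PEG, and 47.4, 53.0 and 55.4 CPM in Matrigel. These ranges overlap, and the 95% interval of its log2 fold change was -0.05 to 0.40 in non-degradable and -0.22 to 0.23 in degradable PEG. Pfkfb3 and Pfkfb4 make and remove a sugar phosphate that activates the committed step, and only the first of them passed. Pfkfb3 had 70.2, 87.8 and 63.2 CPM in non-degradable PEG, 67.4, 65.8 and 46.5 CPM in degradable PEG, and 14.4, 20.3 and 15.4 CPM in Matrigel, a rise of 4.42-fold and 3.59-fold. Pfkfb4 stood between 15.1 and 23.8 CPM in all 9 libraries and passed in neither comparison.

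Of the 7 genes of the triose phosphate and payoff steps, 6 rose in non-degradable and 5 in degradable PEG. Pkm, pyruvate kinase, was the most abundant of the 38 genes by CPM, with 2872, 2496 and 3415 CPM in non-degradable PEG, 2085, 2631 and 2902 CPM in degradable PEG, and 1428, 1552 and 1580 CPM in Matrigel. The PEG gels overlapped each other and lay above Matrigel. Pkm rose by 0.95 ± 0.132 (edgeR adjusted p = 8.47e-04) in non-degradable and by 0.74 ± 0.131 (adjusted p = 0.00393) in degradable PEG, on the log2 scale, and counts per gene cannot tell its M1 and M2 splice forms apart.

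Tpi1, which interconverts the triose phosphates, rose 2.3-fold in non-degradable and 1.81-fold in degradable PEG. Pgk1, which makes the first ATP of the payoff phase, rose 2.99-fold and 2.2-fold. Eno1, the main enolase, rose 2.26-fold and 2.01-fold, and Pgam1, which moves the phosphate before the enolase step, 2.01-fold and 1.54-fold. Eno2, the neuronal enolase, was near the limit of detection at 0.115 to 0.594 CPM across the 9 libraries and passed in no comparison.

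Copies of these genes elsewhere in the genome limit the absolute levels. In 13 of the 38 genes, at least 5% of the 50-base stretches of the principal transcript also occur in transcripts of other genes, at 82.5% for Gapdh, 72.2% for Eno1, 68.0% for Pgk1, 41.5% for Pgam1 and 34.4% for Pkm. Among the 25 genes under 5%, 19 rose in the non-degradable and 13 in the degradable gel against Matrigel. Beside these, 9.71% and 7.42% of all tested genes were called higher. Gapdh, the glyceraldehyde phosphate dehydrogenase often used as a reference gene, had only 10.8 to 27.2 CPM, beside 26.4 to 40.9 CPM for the sum of 200 genes that share its sequence. Its values describe the part of its reads that was assigned, and not its full level.

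Pyruvate is sent to lactate or to mitochondria, and Ldha and Pdk1, which favour the lactate branch, rose. Ldha, the lactate dehydrogenase subunit that favours lactate, had 2033, 1707 and 2411 CPM in non-degradable PEG, 1276, 1530 and 1879 CPM in degradable PEG, and 673, 715 and 716 CPM in Matrigel. Every PEG library lay above every Matrigel library. Ldha rose 2.92-fold (log2 fold change 1.55 ± 0.145, edgeR adjusted p = 1.24e-04) in non-degradable and 2.23-fold (1.16 ± 0.144, adjusted p = 5.45e-04) in degradable PEG.

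Ldhb, the subunit that favours pyruvate, stayed between 3.96 and 5.47 CPM in all 9 libraries, with log2 fold changes of 0.12 (95% interval -0.24 to 0.49) in non-degradable and -0.03 (-0.39 to 0.33) in degradable PEG. Pdk1, a kinase that switches pyruvate dehydrogenase off, had 288, 249 and 348 CPM in non-degradable PEG, 158, 162 and 244 CPM in degradable PEG, and 91.4, 78.9 and 86.6 CPM in Matrigel. It rose 3.45-fold and 2.2-fold, and its 3 matrices did not overlap.

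Since levels of different genes can be compared only per length, shares of isozymes were taken from reads per exon length within each library. Pfkm made up 18.6 ± 2.08% of the 3 phosphofructokinase-1 genes in non-degradable PEG, 20.7 ± 1.59% in degradable PEG and 35.5 ± 2.07% in Matrigel (SD, n = 3 each). Pfkl made up 56.7% in non-degradable PEG, 57.4% in degradable PEG and 47.4% in Matrigel. Neither gel overlapped Matrigel for either share, and the 2-sided exact permutation test gave p = 0.1, its lowest value for groups of 3.

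The share of Aldoc among the aldolases Aldoa and Aldoc was 3.29 ± 0.584% in non-degradable PEG, 2.27 ± 0.304% in degradable PEG and 1.5 ± 0.18% in Matrigel. The 3 matrices did not overlap (exact permutation p = 0.1 for each pair). The share of Ldhb in lactate dehydrogenase was 0.54 ± 0.135% in non-degradable PEG, 0.63 ± 0.164% in degradable PEG and 1.39 ± 0.178% in Matrigel, so it was lower in both PEG gels (exact permutation p = 0.1 each) although Ldhb itself did not pass. The share of Hk2 in the hexokinase pair was 48.2 ± 4.66% in non-degradable PEG, 51.8 ± 8.21% in degradable PEG and 55.6 ± 6.01% in Matrigel, and its ranges overlapped (exact permutation p = 0.2 and 0.5 against Matrigel). With the longest transcript's length in place of the exon length, mean shares in non-degradable PEG, degradable PEG and Matrigel were 2.08%, 1.42% and 0.941% for Aldoc and 0.354%, 0.417% and 0.92% for Ldhb, so their size depends on the length used and their order did not. In all, 8 shares were compared in 3 pairs of matrices, and no p, adjusted or not, could fall below 0.1.

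**Figure D2:**
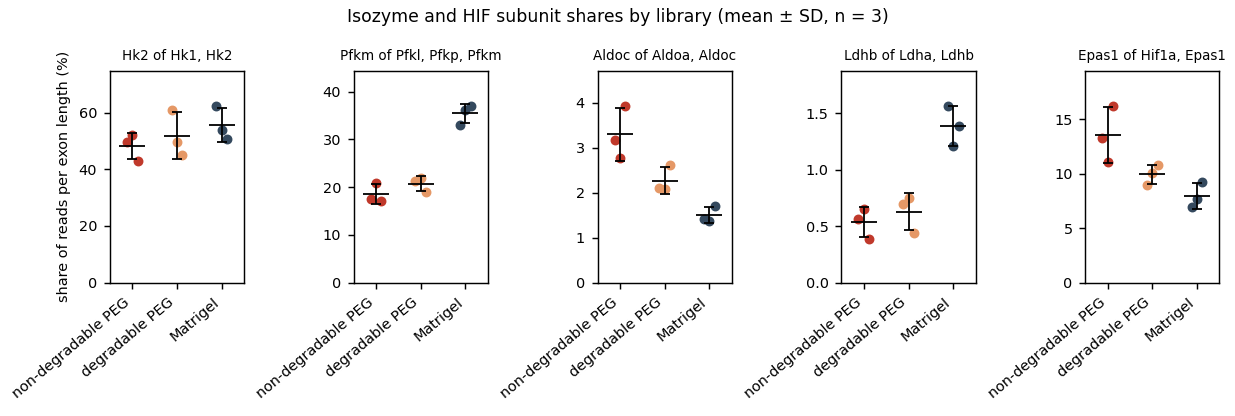
Points are libraries and bars the mean ± SD (n = 3) of the share of reads per exon length, in %, that 1 gene takes within its family, by matrix. Pfkm and Ldhb take a smaller share in both PEG gels than in Matrigel, Aldoc a larger one, and Hk2 overlaps between matrices.

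Hif1a, Arnt and Vhl, which encode the main HIF pair and the ligase subunit that recognises it, passed in no comparison. Hif1a had 179.8, 196 and 196 CPM in non-degradable PEG, 213, 164 and 222 CPM in degradable PEG, and 212, 222 and 221 CPM in Matrigel. All non-degradable libraries lay below all Matrigel libraries, by a log2 difference of -0.19 ± 0.101 (edgeR adjusted p = 0.209, 95% interval -0.42 to 0.03). Without degradable replicate 2, which has the lowest value and enters the shared estimate of spread, that difference was -0.20 with an adjusted p of 0.032.

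Arnt had log2 differences of 0.14 (95% interval -0.02 to 0.29) in non-degradable and -0.08 (-0.24 to 0.07) in degradable PEG. Vhl stood between 40.02 and 44.9 CPM in all 9 libraries, with differences of 0.08 (-0.06 to 0.23) and 0.06 (-0.09 to 0.20). Epas1, the second alpha subunit, had 26, 23.2 and 36.0 CPM in non-degradable PEG, 19.9, 17.5 and 25.4 CPM in degradable PEG, and 15.03, 17.4 and 21.3 CPM in Matrigel. It rose by 0.66 ± 0.187 (edgeR adjusted p = 0.033) in non-degradable PEG, a call lost without Matrigel replicate 1 (0.116) or 2 (0.09) and without non-degradable replicate 1 (0.0535) or 3 (0.14). Its share of reads per exon length among the 2 alpha subunits was 13.5 ± 2.56% in non-degradable PEG, 9.94 ± 0.895% in degradable PEG and 7.95 ± 1.18% in Matrigel (exact permutation p = 0.1 and 0.2 against Matrigel). Endothelial cells are a known source of Epas1, the endothelial marker values are given above, and their part in the Epas1 values was not tested.

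Both prolyl hydroxylase genes, known to be HIF targets themselves, rose in non-degradable PEG. Egln3 had 171, 126 and 239.8 CPM in non-degradable PEG, 103, 95.5 and 161 CPM in degradable PEG, and 19.9, 29.6 and 34.5 CPM in Matrigel. It rose 6.39-fold (edgeR adjusted p = 1.78e-04) in non-degradable and 4.27-fold (adjusted p = 6.68e-04) in degradable PEG. Egln1 rose 1.52-fold in non-degradable PEG and had a fold of 1.25 in degradable PEG that did not pass (adjusted p = 0.0719).

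The mitophagy receptor Bnip3, which marks mitochondria for removal, had one of the highest folds of the 38. Its values were 117, 89.4 and 169 CPM in non-degradable PEG, 46.1, 55.3 and 102 CPM in degradable PEG, and 9.73, 11.8 and 13.5 CPM in Matrigel. The PEG gels overlapped each other, and both were far above Matrigel. The log2 fold change was 3.42 ± 0.315 (edgeR adjusted p = 1.13e-04) in non-degradable and 2.54 ± 0.307 (adjusted p = 4.84e-04) in degradable PEG, and 21.9% of its 50-base stretches are shared with genes that sum to at most 0.132 CPM. Its paralogue Bnip3l rose 1.75-fold in non-degradable PEG and had a fold of 1.37 in degradable PEG (adjusted p = 0.064). Higd1a, a small mitochondrial protein of the respiratory chain, rose 1.62-fold and 1.43-fold.

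Both secreted signals rose in both PEG gels. Adm, the vasodilator peptide adrenomedullin, had 19.6, 20.4 and 33.6 CPM in non-degradable PEG, 22.7, 31.3 and 34.3 CPM in degradable PEG, and 2.43, 4.02 and 4.51 CPM in Matrigel. It rose 6.67-fold in non-degradable and 8.0-fold in degradable PEG, and was 1 of 3 genes, with Hif1a and Eno2, whose difference between the PEG gels was negative. Vegfa, the growth factor for blood vessels, had 131, 135 and 143 CPM in non-degradable PEG, 109, 107 and 114 CPM in degradable PEG, and 55.2, 69.1 and 75.9 CPM in Matrigel. Its 3 matrices did not overlap, and it rose 2.04-fold and 1.64-fold.

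All 3 genes of the secretory pathway rose in both gels. P4ha1 and P4ha2 encode the catalytic subunits of collagen prolyl hydroxylase, and Ero1l oxidises protein disulfide isomerase in the endoplasmic reticulum. P4ha2 had 28.9, 23.7 and 44.8 CPM in non-degradable PEG, 13.7, 19.6 and 29 CPM in degradable PEG, and 3.61, 6.74 and 6.12 CPM in Matrigel, a rise of 5.88-fold and 3.76-fold. P4ha1 rose 4.04-fold and 2.67-fold, and Ero1l 4.7-fold and 2.6-fold.

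Ankrd37, an ankyrin repeat protein known as a HIF-1 target, had the highest fold of the 38 in both comparisons with Matrigel. It had 19.9, 24.0 and 19.1 CPM in non-degradable PEG, 14.6, 16.2 and 11.0 CPM in degradable PEG, and 1.26, 1.26 and 2.00 CPM in Matrigel. The matrices did not overlap. The log2 fold change was 3.79 ± 0.212 (edgeR adjusted p = 3.49e-06) in non-degradable and 3.2 ± 0.21 (adjusted p = 1.71e-05) in degradable PEG. Exons of Ankrd37 overlap those of other genes on the opposite strand by 406 bases, and the sources used here do not give the strand setting of the counting, so its level is uncertain to that extent. In all, 13 of the 38 genes have such an overlap.

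Of the other 3 targets, Kdm3a, a histone H3 lysine 9 demethylase, rose 1.52-fold and Mxi1, a MYC antagonist, 1.45-fold in non-degradable PEG. The call on Mxi1 (edgeR adjusted p = 0.0271) was lost without Matrigel replicate 1 (0.0985) or 2 (0.071) and without non-degradable replicate 1 (0.0711) or 3 (0.114). Ndrg1, a stress-responsive protein, had 338, 229 and 445 CPM in non-degradable PEG, 138, 122 and 207 CPM in degradable PEG, and 118, 81.4 and 78.9 CPM in Matrigel. It rose 3.64-fold in non-degradable PEG (edgeR adjusted p = 8.22e-04) and had a fold of 1.68 in degradable PEG (adjusted p = 0.08).

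**Figure D3:**
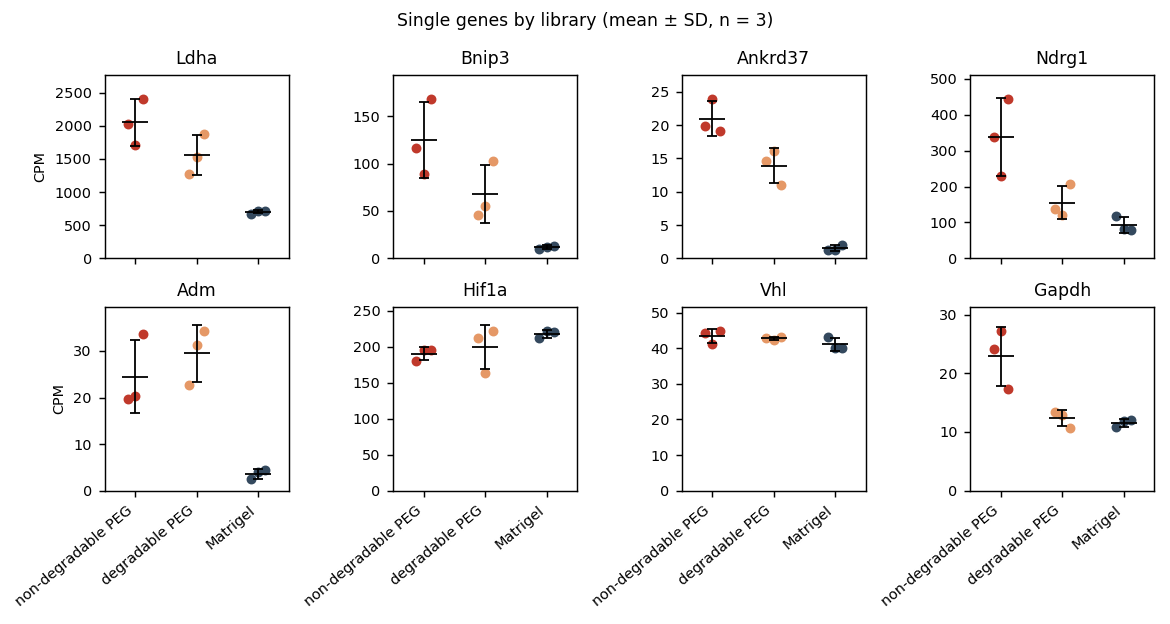
Points are the CPM of single libraries and bars the mean ± SD (n = 3) by matrix, for 8 of the 38 genes. Ldha, Bnip3, Ankrd37 and Adm lie above Matrigel in both PEG gels, Ndrg1 is highest in non-degradable PEG, and Hif1a and Vhl are close in all 3 matrices.

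The number of genes that passed between the 2 PEG gels depended on the processing, and 35 of the 38 differences were positive. In non-degradable against degradable PEG, 1 of the 38 genes (2.63%) rose and 0 fell, beside 0.814% of all tested genes called higher and 0.464% lower. The called gene was Gapdh. DESeq2 called 5 of the 38 higher and 0 lower, beside 2.2% and 1.31% of its tested genes, namely Gapdh, Ankrd37, Kdm3a, Ndrg1 and Pdk1. Without a filter on low counts 11 were higher and 0 lower, beside 1.34% of genes higher, and with the replicate number as a block likewise 11 and 0, beside 2.38%. By the rule used, the shared numbers were not taken as pairs for these gels, although 5 of 6 libraries correlated best with their own number. Beside the 35 positive differences, 50.7% of all tested genes had a positive one, and the median log2 difference was 0.35 over the 38 and 0.0033 over all tested genes. At an unadjusted p under 0.05, 25 of the 38 (65.8%) were higher and 1, Eno2, was lower, beside 8.52% of all tested genes higher and 6.29% lower. Libraries did not overlap for 11 genes, 10 of them higher, beside 19% of all tested genes.

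Gapdh had 24.2, 27.2 and 17.4 CPM in non-degradable PEG, against 13.4, 12.9 and 10.8 CPM in degradable PEG. All non-degradable libraries were higher, by a log2 difference of 0.89 ± 0.154 (edgeR adjusted p = 0.0229), with the limit from its copies given above. The call was lost without non-degradable replicate 1 (0.104) or 2 (0.0589) and without degradable replicate 2 (0.0982) or 3 (0.0595). Below Gapdh, the smallest adjusted p values were those of Kdm3a (log2 difference 0.35 ± 0.0781, adjusted p = 0.0615), Ndrg1 (1.12 ± 0.252, 0.0636) and Pdk1 (0.65 ± 0.164, 0.0931), which missed the threshold in this fit. All of these passed under each of 3 alternatives. Kdm3a had an adjusted p of 0.0167 with the replicate block, 0.0202 without a filter and 0.00517 by DESeq2. For Ndrg1 these values were 0.0165, 5.57e-05 and 0.0329, and for Pdk1 0.015, 0.00115 and 0.00652. Without degradable replicate 3, the library with the most maxima in its matrix, 5 of the genes described here passed and Gapdh did not. The 5 were Bnip3 (0.0382), Ero1l (0.0386), Ndrg1 (0.0386), Pdk1 (0.0202) and Pgam1 (0.0255). Over all genes, 99 were then called higher and 40 lower, against 121 and 69 with all libraries. Ndrg1 also passed without Matrigel replicate 1 (0.0458) and without non-degradable replicate 2 (0.0304).

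Against Matrigel, 8 genes passed in non-degradable but not in degradable PEG, namely Hk1, Gapdh, Egln1, Epas1, Bnip3l, Kdm3a, Mxi1 and Ndrg1. Of these, Gapdh passed in the direct test between the PEG gels, and under alternatives Kdm3a and Ndrg1 did too, as given above, and Epas1 with the replicate block (adjusted p = 0.0336). The split between the gels depended on the fit. In degradable PEG against Matrigel with the replicate block, Bnip3l (adjusted p = 0.0237), Egln1 (0.028), Hk1 (0.0054), Kdm3a (0.0193), Mxi1 (0.0257) and Ndrg1 (0.0315) passed as well. Without a filter Bnip3l (0.0093), Egln1 (0.0376), Hk1 (0.00325) and Ndrg1 (0.003) passed, and by DESeq2 Bnip3l (0.0282) and Kdm3a (0.0375). Upper-quartile scaling brought Bnip3l (0.0408), Egln1 (0.0382) and Kdm3a (0.0231) past the threshold. Leaving out 1 library brought Bnip3l, Egln1, Hk1, Kdm3a or Ndrg1 past the threshold. Without non-degradable replicate 3, 4 of them passed, namely Bnip3l (0.0399), Egln1 (0.0452), Hk1 (0.0423) and Ndrg1 (0.0482). Without degradable replicate 1, Bnip3l (0.0219) and Hk1 (0.0158) passed, without degradable replicate 2 Kdm3a (0.0141), and without non-degradable replicate 2 Ndrg1 (0.0472).

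**Figure D4:**
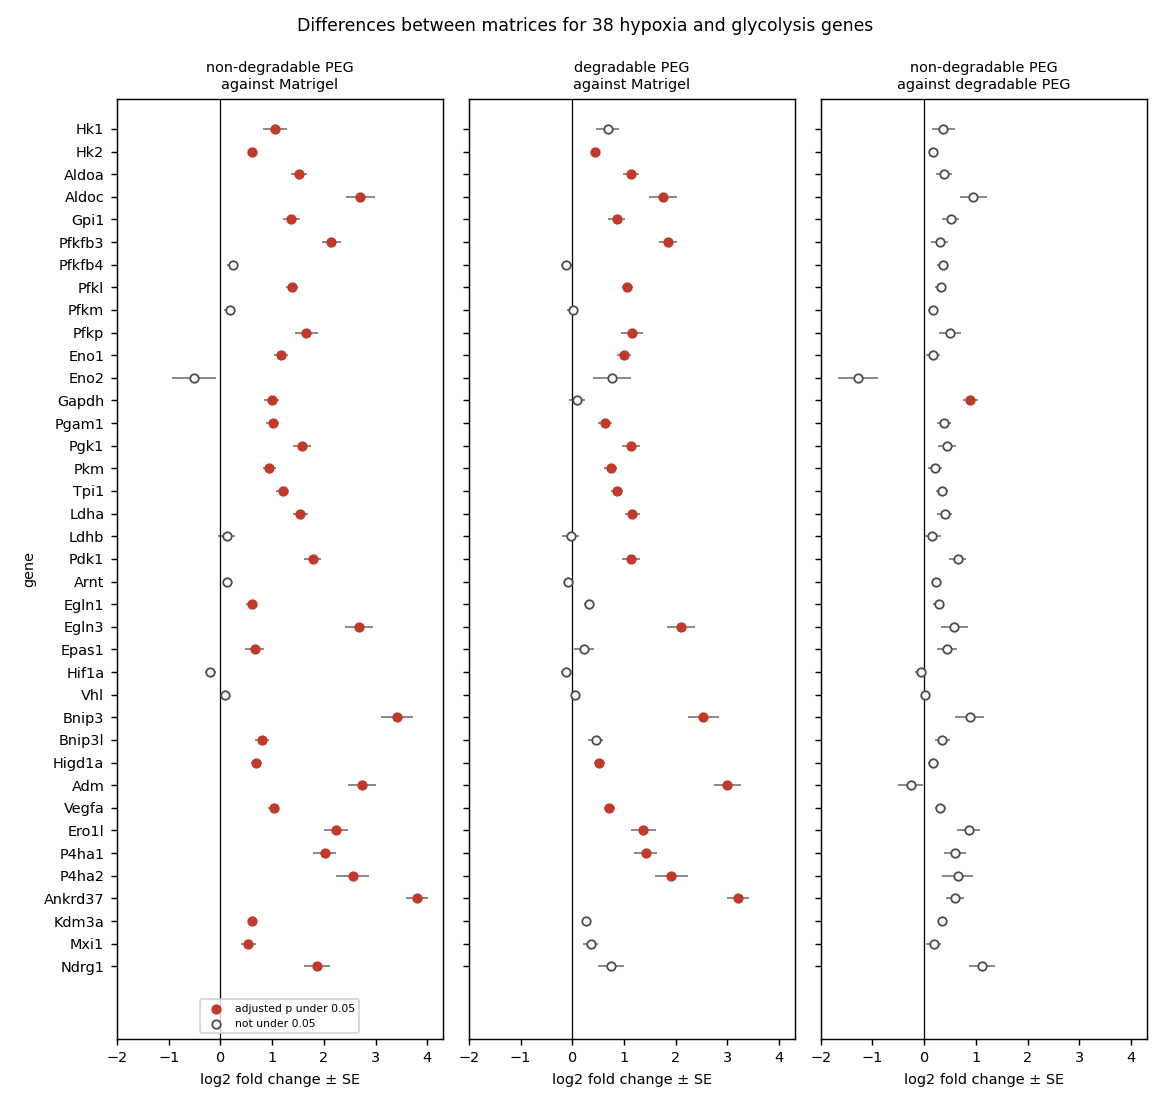
Points are log2 fold changes with their standard errors for the 38 genes in each of the 3 comparisons, filled where the adjusted p is under 0.05. Filled points are 31, 23 and 1 in number, and the third panel lies mostly right of 0 with few points far from it.

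Lists of related genes, chosen with earlier results of these data known, were set beside the 38. Of all tested genes, 9.71% were called higher and 7.13% lower in non-degradable PEG against Matrigel. In degradable PEG against Matrigel these shares were 7.42% and 4.79%. Of 18 tested genes of a further list of HIF targets, 12 rose in non-degradable and 12 in degradable PEG, with median log2 fold changes of 0.96 and 0.87. Slc16a3, the lactate exporter MCT4, had 170 to 349 CPM in non-degradable PEG, 93.3 to 218 CPM in degradable PEG and 2.41 to 7.20 CPM in Matrigel, and rose by 5.80 ± 0.452 (edgeR adjusted p = 4.51e-05) and by 5.01 ± 0.439 (adjusted p = 9.38e-05) on the log2 scale. The secreted glycoprotein Stc2 rose by 1.99 ± 0.105 and 1.38 ± 0.104, and was also higher in non-degradable than in degradable PEG by 0.61 ± 0.0999 (adjusted p = 0.0189). The transcription factor Bhlhe40 rose by 2.01 ± 0.123 and 1.97 ± 0.123.

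Glycolysis enzymes outside the 38 were mostly tissue-restricted isozymes. Of 12 tested, 5 rose and 1 fell in non-degradable PEG, and 3 rose in degradable PEG, with medians of 0.36 and 0.17. Pklr, the liver and red cell pyruvate kinase, rose by 1.02 ± 0.19 (edgeR adjusted p = 0.0048) and by 0.70 ± 0.19 (adjusted p = 0.0344), Ldhd, the D-lactate dehydrogenase, by 0.88 ± 0.123 and 0.57 ± 0.124, and Hkdc1, a hexokinase-like enzyme, by 0.90 ± 0.129 in non-degradable PEG. Hkdc1 was also higher in non-degradable than in degradable PEG, by 0.66 ± 0.129 (edgeR adjusted p = 0.0351).

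The counts of the next lists can be read against the shares of all tested genes given above, which for the non-degradable gel were 9.71% (higher) and 7.13% (lower) and for the degradable gel 7.42% and 4.79%. Of 12 tested genes of glycogen and gluconeogenesis, 4 rose in the non-degradable and 2 in the degradable gel. The phosphoglucomutase Pgm1 rose in both, by 1.29 ± 0.134 (edgeR adjusted p = 1.78e-04) and 0.80 ± 0.133 (adjusted p = 0.00272), and the glycogen synthase Gys1 rose by 0.48 ± 0.1 and Pgm2 by 0.29 ± 0.0726 in non-degradable PEG. Ppp1r3c, a subunit that targets a phosphatase to glycogen, was low, at 0.579 to 1.42 CPM in degradable PEG and 0.211 to 0.352 CPM in Matrigel, and rose in degradable PEG by 1.90 ± 0.473 (edgeR adjusted p = 0.0239). Of 7 genes of the pentose phosphate pathway, 1, Pgd, rose in each gel. Of 12 genes for the entry of pyruvate into mitochondria, 1 rose in non-degradable PEG, the kinase Pdk4 (1.95 ± 0.484, adjusted p = 0.0198), and 1 fell in degradable PEG, the dehydrogenase subunit Pdha1 (-0.23 ± 0.064, adjusted p = 0.0362).

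Of 16 genes of the citric acid cycle, 1 rose in non-degradable PEG, the citrate synthase gene Cs (0.21 ± 0.0625, edgeR adjusted p = 0.043), and the median log2 fold changes of the list were -0.03 and -0.06. Of 13 further regulators of HIF, 2 rose and 2 fell in non-degradable PEG. Hif3a, an alpha subunit that can oppose the others, rose by 1.08 ± 0.294 (adjusted p = 0.0293), and the ubiquitin ligase gene Siah2 by 0.30 ± 0.0761 (adjusted p = 0.0219). Siah1a (-0.32 ± 0.075, adjusted p = 0.0143) and the ligase subunit Rbx1 (-0.22 ± 0.0672, adjusted p = 0.0445) fell.

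**Figure D5:**
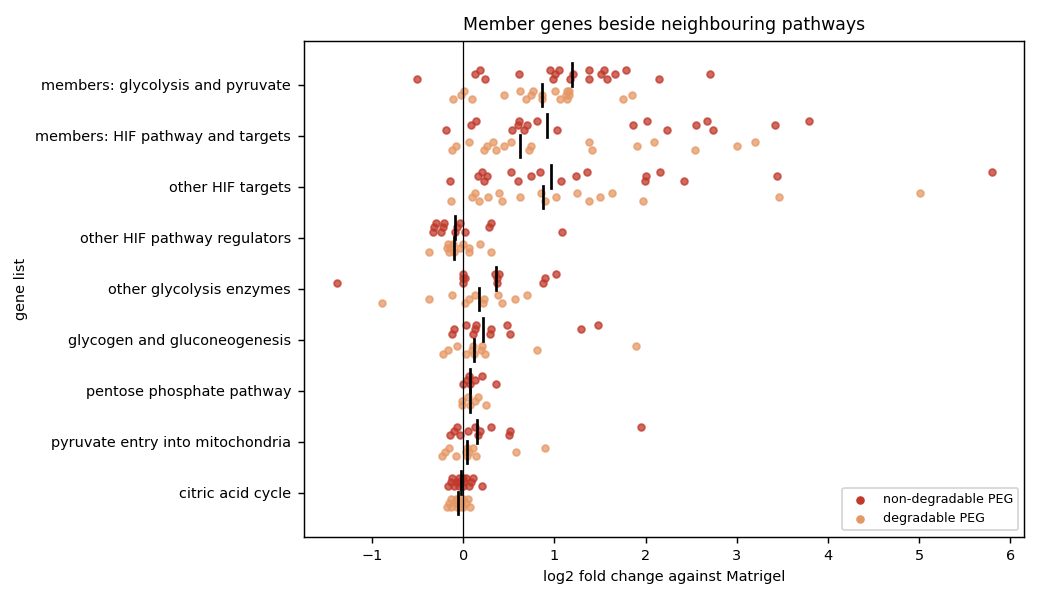
Each point is the log2 fold change of 1 tested gene against Matrigel in non-degradable PEG (upper row of a list) or degradable PEG (lower row), and black bars are list medians. The 2 groups of the 38 genes and the further HIF targets lie to the right of 0, and the citric acid cycle, the pentose phosphate pathway and the further HIF regulators lie around 0.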

How the data were processed

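The submitters' processing notes name cutadapt 1.3, STAR 2.4.2a, HTSeq 0.6.1 and the build GRCm38. Per the labels' protocols, libraries came from a stranded mRNA kit. For the counting, annotation and strand setting are not given in the sources used. The values used are raw read counts per gene as deposited by the authors, 1 table per library. The 5 tally rows of each table were left out of library sizes and tests. Of the assigned, no-feature and ambiguous counts together, 7.29% to 11.2% had no feature and 1.09% to 1.16% were ambiguous.

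The members and gene lists were chosen with earlier results of these data known. Library sizes were scaled with edgeR's TMM factors, and genes were filtered with filterByExpr by matrix. Each comparison was a contrast in 1 edgeR 4.0.16 quasi-likelihood fit of all 9 libraries (R 4.3.3, limma 3.58.1), with adjustment over 14870 genes and an adjusted p under 0.05 as the threshold. A standard error was taken as the size of the log2 fold change divided by the root of its F statistic, and 95% intervals used the t quantile of the fit's degrees of freedom. CPM used TMM-scaled library sizes. The common dispersion corresponded to a coefficient of variation of 11%. The edgeR test was also tried on simulated counts, built from the means and dispersions of the main fit. GENCODE M21 on GRCm38 gave symbols and exon lengths for 46005 genes, and a second Ensembl identifier named Aldoa was not used here. Of each further list, the text names at most 3 genes with the smallest p in non-degradable PEG against Matrigel, plus any that passed in another direction or comparison. Of these last, Pdha1, Rbx1, Ppp1r3c and the repeat values of named genes between PEG gels were picked after their values were seen. A few genes chosen this way are not reported here.

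Alternatives were RLE, upper-quartile and total-count scaling, no filter, a mean of at least 10 CPM, a replicate block, the compared groups only, DESeq2 1.42.0, and leaving out each library. Replicate numbers are shared between matrices. Deviations of same-numbered libraries from their group means correlated at 0.331, 0.176 and 0.186 between non-degradable PEG and Matrigel, all above 0.1, so these numbers were taken as pairs from the data, while the labels give no meaning for them. For the other pairs of matrices 1 correlation each lay below 0.1 (0.0712 and 0.0197). The main fit and the permutation tests used no pairing for any comparison, and the replicate block is the paired alternative. With the replicate block, 3877 genes in place of 2504 changed between non-degradable PEG and Matrigel, and the count of members stayed at 31.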

Additional observations from a re-analysis of the deposited data

Results flagged for a closer look

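Gapdh was picked out because its difference against Matrigel was not alike in the 2 PEG gels. Its log2 fold change against Matrigel was 0.99 ± 0.154 (edgeR adjusted p = 0.00167) in non-degradable PEG and 0.09 ± 0.155 (adjusted p = 0.744) in degradable PEG. The direct test between the gels gave 0.8948 (edgeR adjusted p = 0.0229), with all 3 non-degradable libraries above all 3 degradable ones. Of the 50-base stretches of its principal transcript, 82.5% occur in transcripts of other genes, and reads with several alignments were tallied apart from genes. That tally held 66.0 to 68.8 entries per 100 assigned reads in non-degradable PEG, 65.2 to 69.4 in degradable PEG and 70.1 to 71.8 in Matrigel. A read may give several entries, so these are not shares of reads. The part of such reads in the difference was not tested.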

How the results depend on the processing

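Between non-degradable PEG and Matrigel, 634 of 644 member values over 17 alternatives kept their direction and side of the threshold, 8 lost and 2 gained a call and 0 reversed. In degradable PEG against Matrigel 608 did, 28 gained a call and 8 reversed, and between the PEG gels 605 did, 4 lost and 32 gained a call and 3 reversed. The members called were 29 to 32 in non-degradable and 23 to 27 in degradable PEG when 1 library was left out, and 0 to 5 between the PEG gels, with 0 without non-degradable replicate 1 or degradable replicate 2 and 5 without degradable replicate 3. Between the PEG gels, they were 2 with total counts only, 11 without a filter, 11 with the replicate block and 5 with DESeq2. The replicate block called 29 members in degradable PEG.

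Over all genes, the calls in non-degradable PEG against Matrigel were 1511 with a mean of at least 10 CPM, 3877 with the replicate block and 1189 to 3247 without 1 library. In degradable PEG against Matrigel they were 948, 2783 and 1086 to 2395. Between the PEG gels they were 91, 542 and 19 to 242, with 521 without a filter and 511 with DESeq2. Fewer genes were tested with the CPM minimum, and fewer samples entered without 1 library. Counts fell by over 1.5 times without Matrigel replicate 1 or 2 or non-degradable replicate 1 or 3 in the first comparison, without Matrigel replicate 1 or 3 or degradable replicate 3 in the second, and without non-degradable replicate 1 or 2 or degradable replicate 1 or 2 in the third. For the rest the cause was not tested. Between degradable PEG and Matrigel, and between the PEG gels, the shared numbers showed no pairing by the rule used, although 6 of 6 and 5 of 6 libraries correlated best with their own number.

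Reversed values were all of small size and uncalled. In degradable PEG, Ldhb was 0.01348 with upper-quartile scaling and -0.1815 to 0.06112 without 1 library, and Pfkm -0.003223 without a filter and -0.06447 to 0.1099 without 1 library. Between the PEG gels, Vhl was -0.00145 with upper-quartile scaling and -0.004056 with total counts only, and Hif1a -0.1972 to 0.0156 without 1 library. Leaving out 1 library, an alternative chosen after seeing the data, put the difference in share between the PEG gels at -7.04 to 0.92 percentage points for Hk2 and -2.10 to 0.40 for Pfkl, and that of Eno2 in degradable PEG against Matrigel at -0.02567 to 0.005928. Hif1a passed as lower in non-degradable PEG with the compared groups only (-0.20, edgeR adjusted p = 0.0332). With 3 libraries a matrix, exact permutation tests could not go below 0.1.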
